A study of Mus musculus with 15 samples.

Results

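The 9 genes described here mark successive stages of the oligodendrocyte lineage, from the dividing progenitor to the cell that wraps axons in compact myelin. They were chosen by symbol, namely Pdgfra, Olig1, Sox10, Cnp, Mbp, Mag, Mal, Mog and Mobp, and each matched 1 of the 38561 gene identifiers counted. RNA was taken from Purkinje cells (PCs), the large inhibitory output neurons of the cerebellar cortex, which were cut out of brain sections of male C57/BL6 mice (written C56/BL6 in the labels) by laser capture at postnatal days 0, 4, 8, 14 and 21 (P0, P4, P8, P14 and P21). The animals carried no stated mutation and received no stated treatment, and each time point had 3 replicate libraries, 15 in all. At P4 to P21 a library held soma from a few parasagittal sections of a mouse, whereas at P0 clusters of PCs were taken since single soma were hard to isolate, so age and the way of cutting cannot be told apart for P0.

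Oligodendrocytes arise from migrating progenitors that respond to platelet-derived growth factor, leave the cell cycle, and then switch on the enzymes and structural proteins of myelin in a set sequence. In the cerebellum the axons of PCs are among those that become myelinated in the first postnatal weeks, and oligodendrocytes are found in the white matter and the granular layer near the PC soma. Any RNA of these genes was read here together with the RNA of the captured neuron. In such bulk libraries fewer cells of a type and less RNA per cell cannot be told apart.

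Total counts on genes ran from 3409371 to 7814951 per library. The level used here as the limit of detection, 3 counts, stood for 0.384 to 0.880 counts per 1000000 (CPM) of these plain totals. The CPM values below use normalized library sizes, on which the limit differs somewhat. The 6 PC markers, among them Calb1, Itpr1 and Pcp2, summed to 5340 ± 737 CPM at P0 and 42941 ± 5287 CPM at P21 (SD, n = 3). The 10 markers of astrocytes and Bergmann glia summed to between 3473 and 10064 CPM in each of the 15 libraries and microglial markers to at most 25.5 CPM. The 4 markers of Schwann cells, which myelinate peripheral nerve, summed to 0 to 24.0 CPM per library. The highest sum was in a P0 library, all of it from Ncmap, the P21 sums were at most 0.480 CPM, and Pmp2 was at 0 in every library. The 9 lineage genes together summed to 37.4 ± 5.47, 123 ± 26.8, 309 ± 76.9, 447 ± 18.7 and 608 ± 253 CPM from the earliest to the latest time point, which was 0.700%, 0.930%, 1.61%, 1.32% and 1.42% of the PC marker sum. These are ratios of means without a spread, highest at P8, and the libraries of P8 and P21 overlapped. At P21 the lineage sum was 897 CPM beside 36886 for the PC markers in the third library, and 423 beside 45298 in the first. At P8, Cnp alone had a mean of 220 CPM. Which cells the lineage RNA came from was not tested.

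**Figure D1:**
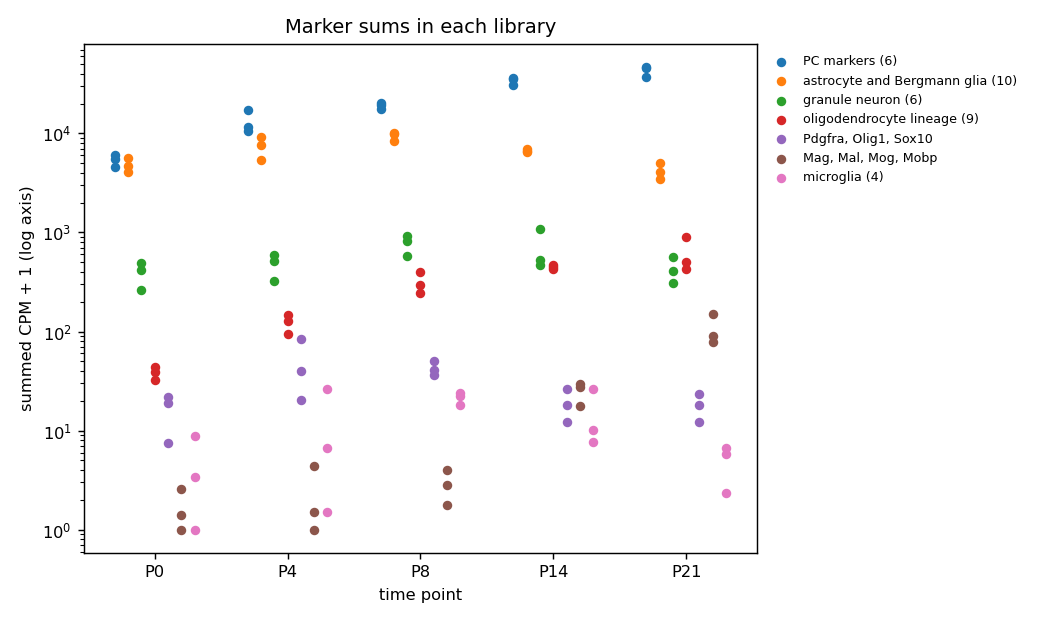
Summed CPM plus 1 of marker lists (log axis) against time point, with 1 point per library. The 9 lineage genes together stayed below the astrocyte and Bergmann glia markers at every time point, while the sum of Mag, Mal, Mog and Mobp was at most 3.43 CPM in any library up to P8 and at least 77.1 CPM in each P21 library.

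The sequences just upstream of 3 of the myelin genes are shown because they hold the letters that factors of this lineage are known to recognise. SOX proteins, to which Sox10 belongs, bind ACAAAG, which reads CTTTGT on the other strand, and the myelin regulatory factor encoded by Myrf binds CTGGCAC, which reads GTGCCAG on the other. Windows of 300 bases around the RefSeq start (assembly GRCm38.p6) were searched on both strands for 6 of the 9 genes. The SOX letters occurred in 18.7% of all 32851 windows and the Myrf letters in 5.01%. The part of each window before the transcript is given 5′ to 3′ on the gene's strand, with these letters in capitals.
Mobp promoter (chr9:120149492-120149706, plus strand): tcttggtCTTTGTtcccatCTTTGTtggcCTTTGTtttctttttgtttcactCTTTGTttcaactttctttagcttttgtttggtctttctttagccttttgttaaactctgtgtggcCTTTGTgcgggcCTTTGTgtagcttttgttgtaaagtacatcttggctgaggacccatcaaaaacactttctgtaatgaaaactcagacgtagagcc
Cnp promoter (chr11:100574689-100574903, plus strand): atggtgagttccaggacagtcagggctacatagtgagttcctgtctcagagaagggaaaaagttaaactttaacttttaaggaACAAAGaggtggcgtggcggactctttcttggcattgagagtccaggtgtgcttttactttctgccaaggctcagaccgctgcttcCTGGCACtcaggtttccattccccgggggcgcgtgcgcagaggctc
Mag promoter (chr7:30914923-30915172, minus strand): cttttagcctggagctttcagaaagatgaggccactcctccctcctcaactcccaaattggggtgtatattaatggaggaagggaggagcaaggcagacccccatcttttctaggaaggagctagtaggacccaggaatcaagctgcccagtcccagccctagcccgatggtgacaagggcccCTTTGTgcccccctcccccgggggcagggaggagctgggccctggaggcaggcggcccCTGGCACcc

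The Mobp window held the SOX letters 6 times, a number reached by 1 of the 32851 windows, its own. The repeats sit in a stretch rich in runs of T. The Cnp and Mag windows each held the SOX letters 1 time and the CTGGCAC letters 1 time. Neither motif was found in the windows of Pdgfra, Mal and Mog. The E-box CAGCTG (16.3% of all windows) and the TATA box letters TATAAA (13.6%) were in none of the 6 windows, and the GC box CCGCCC (35.7%) was only in that of Cnp, 2 times. These matches are of letters alone, and binding was not measured. No window is shown for Olig1, Sox10 or Mbp.

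By the time point of the highest mean, Pdgfra, Olig1 and Sox10 came first, at P4 or P8. None of these passed a test of change over time, as given below. At P0 itself Cnp had the highest mean CPM of the 9, 13.7 ± 13.2. Pdgfra encodes the receptor through which platelet-derived growth factor keeps progenitors dividing, and lies on chromosome 5 (75152292 to 75198215, plus strand, GRCm38). It stood at 4.62, 0.992 and 3.04 CPM in the 3 P0 libraries, 40.5, 7.38 and 16.4 at P4, 9.47, 13.7 and 0 at P8, 0, 10.5 and 0.384 at P14, and 0, 1.69 and 5.60 at P21. Every P4 library was above every P0 library, and from P8 on each time point had 1 library at 0. The mean of 21.4 ± 17.1 CPM at P4 (SD, n = 3) was the highest. The first P4 replicate carried the highest Pdgfra, Olig1 and Sox10 of that time point and also the highest sum of 4 fibroblast markers, 169 CPM against a lowest value of 5.30 in that group. Fibroblasts of the meninges also express Pdgfra, and the part of such cells in its level was not tested.

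Olig1, on chromosome 16 (91269772 to 91271933, plus strand, a gene of 1 exon), encodes a basic helix-loop-helix factor present throughout the lineage. Its level was 10.6, 13.3 and 0.203 CPM at P0, 27.5, 8.15 and 16.8 at P4, 9.88, 16.2 and 13.4 at P8, 9.20, 13.4 and 8.64 at P14, and 8.68, 13.3 and 7.69 at P21. The third P0 replicate had 1 count, the groups of all 5 time points overlapped, and Olig1 had at least 1 count in all 15 libraries. The mean peaked at P4 (17.5 ± 9.68 CPM), but without the first P4 replicate the peak moved to P8, at 13.2 against 12.5 CPM.

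Sox10, on chromosome 15 (79154908 to 79165240, minus strand), encodes the factor that directs transcription of myelin genes. It was read at 2.69, 6.35 and 3.24 CPM at P0, 14.7, 4.01 and 5.65 at P4, 20.8, 20.0 and 21.9 at P8, 7.73, 1.34 and 2.11 at P14, and 2.67, 2.12 and 9.13 at P21. All 3 P8 libraries were above the other 12 and close to each other, with a mean of 20.9 ± 0.933 CPM. The edgeR quasi-likelihood test of any change over the 5 time points gave Sox10 an unadjusted p of 0.0472 and an adjusted p of 0.155, so the P8 maximum did not pass the threshold.

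Cnp and Mbp peaked later, at P14 and P21, although both held at least 3 counts in all 15 libraries. Cnp encodes a phosphodiesterase of the cytoplasmic channels of myelin that is made before compaction, and lies on chromosome 11 (100574904 to 100591729, plus strand). It was measured at 3.46, 8.93 and 28.6 CPM at P0, 53.5, 90.4 and 40.9 at P4, 158, 198 and 303 at P8, 306, 282 and 355 at P14, and 209, 237 and 326 at P21. The groups at P0, P4 and P8 did not overlap, and from P14 to P21 they did. At P21 the mean CPM was 18.8-fold that at P0, or 41.5-fold without the third P0 replicate. Cnp shares 154 exon bases with Dnajc7 on the opposite strand, a gene with 11826 counts over all libraries, and whether the counting used strand is not given in the sources used here.

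Mbp, on chromosome 18 (82475146 to 82585637, plus strand), encodes the basic protein that holds the cytoplasmic faces of compact myelin together. The same gene also yields golli transcripts in neurons and other cells, and counts per gene do not separate them. Its level was 10.2, 7.14 and 6.89 CPM at P0, 10.1, 17.7 and 10.5 at P4, 40.9, 43.5 and 53.7 at P8, 96.3, 131 and 46.5 at P14, and 113, 173 and 399 at P21. Every P8 library was above every P0 and P4 library, and the P21 spread was the widest, 229 ± 151 CPM. The mean at P21 was 28.3-fold that at P0, or 17.7-fold without the third P21 replicate.

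The remaining 4 genes were at or near 0 until P14. Mag, on chromosome 7 (30899176 to 30914873, minus strand), encodes the adhesion glycoprotein of the myelin layer next to the axon. It had no count in any P0 or P4 library, 2.02, 0.572 and 0 CPM at P8, 1.84, 0 and 0.960 at P14, and 8.35, 10.8 and 17.8 at P21. All P21 libraries were above all others, and P21 was the first time point at which each replicate held at least 3 counts, as it was for Mal.

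Mal, on chromosome 2 (127633226 to 127656695, minus strand), encodes a proteolipid that sorts membrane to myelin. It was at 0 in all P0 libraries, at 0, 0 and 1.88 CPM at P4, 0.202, 0.191 and 1.81 at P8, 9.39, 4.60 and 0.384 at P14, and 16.0, 19.5 and 29.3 at P21. The P14 libraries overlapped those of P8, and the P21 libraries stood above the rest.

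Mog, on chromosome 17 (37010743 to 37023398, minus strand), encodes a glycoprotein on the outermost face of the sheath. Its values were 0, 1.59 and 0.405 CPM at P0, 0, 0 and 1.54 at P4, 0 in all 3 at P8, 6.26, 0.766 and 7.10 at P14, and 19.0, 8.47 and 16.8 at P21. Few reads were present before P14, 10 over the P0 libraries together, and P14 was the first time point at which each replicate held at least 3.

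Mobp, on chromosome 9 (120149707 to 120181484, plus strand), encodes a small basic protein of compact myelin. It was listed at 0 in all P0 libraries, at 0.491, 0 and 0 CPM at P4, 0.806, 0 and 0 at P8, 9.02, 23.4 and 8.25 at P14, and 45.4, 38.3 and 85.4 at P21. No P14 library overlapped an earlier one and no P21 library overlapped a P14 one. With all P0 libraries at 0, 3 counts per library were taken as the P0 level for Mobp, Mal and Mag. Against it the P21 mean was 95.0-fold for Mobp, 36.4-fold for Mal and 20.7-fold for Mag. These are lower limits as to the P0 level only. Without the third P21 replicate, the P21 means fell from 56.4, 21.6 and 12.3 CPM to 41.9, 17.8 and 9.57 CPM in that order.

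**Figure D2:**
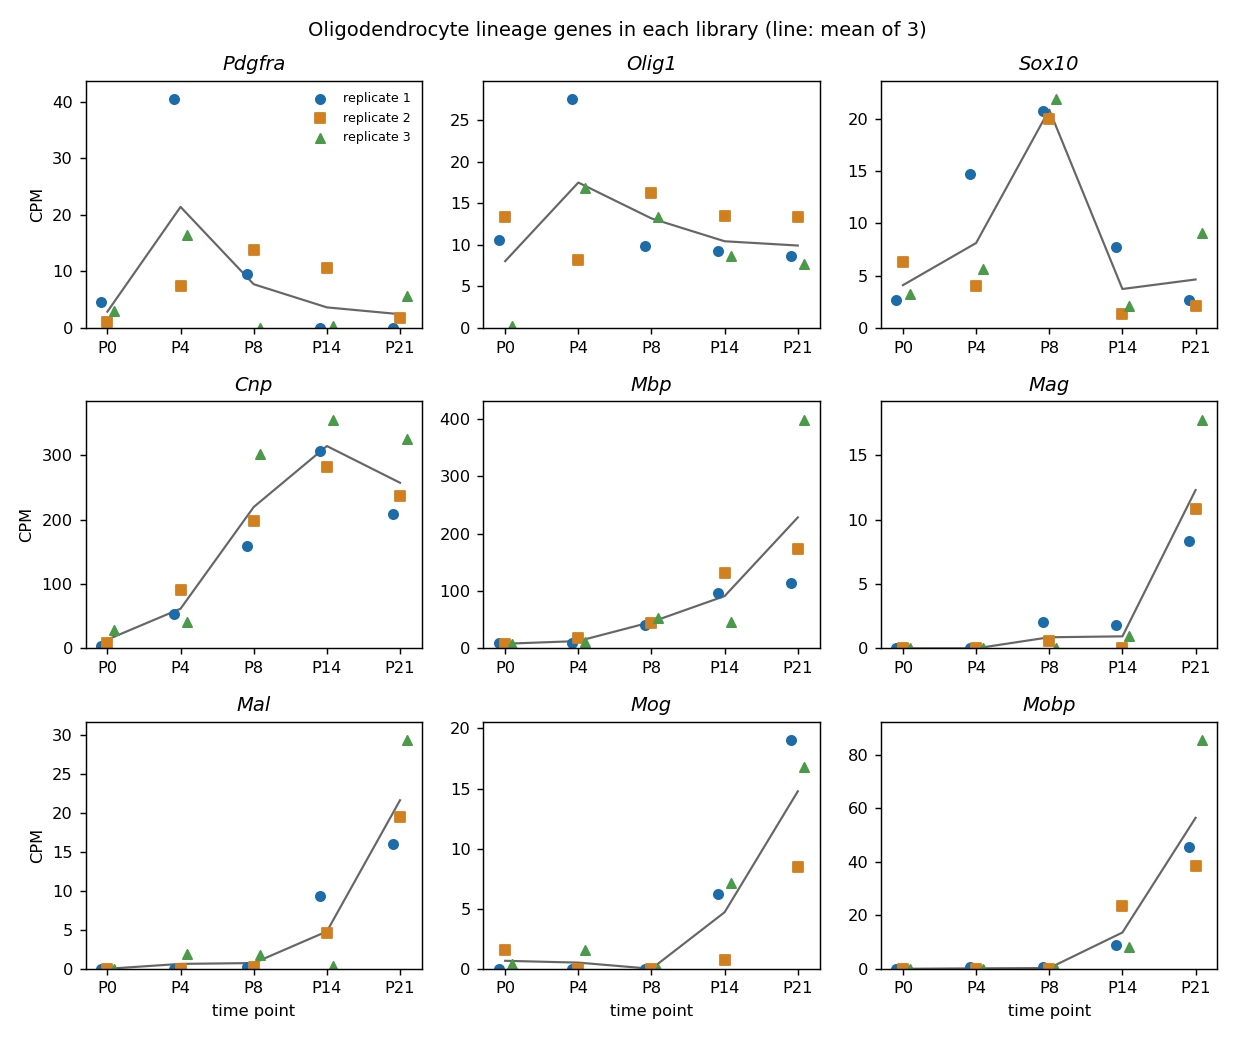
CPM of each of the 9 genes (vertical axis, each panel on its own scale from 0) against time point, with 1 symbol per library by replicate number and a line through the means of 3. Sox10 is highest in all 3 P8 libraries, at 20.0 to 21.9 CPM. Mag, Mal, Mog and Mobp first hold at least 3 counts in each replicate at P14 or P21, though single earlier libraries also reach 3 counts.

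The order of appearance was read from the day at which the line through the time point means first reached 50% of the gene's peak. This was day 0.301 for Olig1, 1.69 for Pdgfra, 4.73 for Sox10 and 6.42 for Cnp. Mbp followed at day 15.2, Mog at 15.9, Mobp at 16.4, Mal at 16.5 and Mag at 17.2. Leaving out 1 library at a time gave 4.10 to 5.40 for Sox10, 6.03 to 7.28 for Cnp and 11.4 to 15.9 for Mbp, which did not overlap each other. The ranges of Mog (14.6 to 16.4), Mobp (15.8 to 16.9) and Mal (15.8 to 17.0) overlapped each other and that of Mbp, so these 4 were not separated. That of Mag, 17.1 to 17.4, began at 17.05, where that of Mal ended at 17.04. Its narrowness follows from the method, since a gene near 0 at P14 and highest at P21 must reach 50% near the middle of that step. Such ranges are not confidence intervals, and whether the days differ between genes was not tested. The ranges of Olig1 (0 to 1.11) and Pdgfra (1.36 to 1.79) did not overlap, although both rest on the P0 and P4 libraries. At P8, Cnp had reached 69.9% of its peak mean CPM, Mbp 20.1% and Mobp 0.477%. Another measure is the first time point with at least 3 counts in each replicate. By it Pdgfra, Sox10, Cnp and Mbp were present from P0 and Olig1 from P4.

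**Figure D3:**
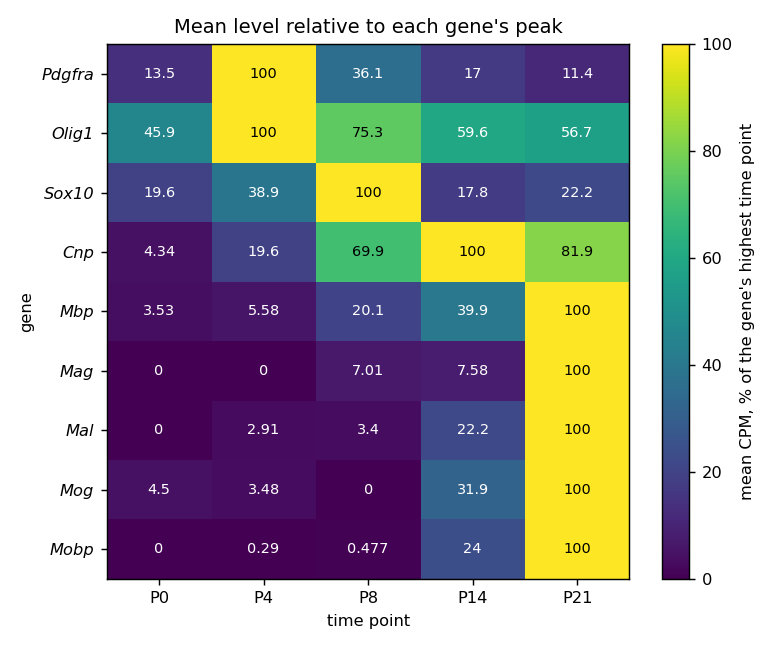
Mean CPM of 3 libraries as a percentage of the gene's highest time point, by gene (vertical axis) and time point (horizontal axis). The 100% cell moves from P4 (Pdgfra, Olig1) through P8 (Sox10) and P14 (Cnp) to P21 for the other 5 genes.

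The trend with postnatal day was tested over all 15 libraries and the 14293 genes left by the filter on low counts of edgeR. Of the 9 lineage genes, 6 rose and 0 fell with day (0 had a negative slope at an unadjusted p below 0.05, with edgeR, DESeq2 or limma-voom), where 12.1% of all genes tested rose and 14.1% fell. The median slope of the 9 was 0.23 log2 units per day, which is that of Mbp, beside -0.0077 over all genes tested. All 9 passed the filter, but Mag, Mal, Mog and Mobp did so through their late libraries, and a gene kept in that way had to differ between time points.

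Mobp had the steepest slope, 0.55 log2 units per day (SE 0.061, adjusted p = 2.39e-06). Mag rose by 0.39 (SE 0.076, adjusted p = 0.000723) and Mal by 0.36 (SE 0.068, adjusted p = 0.000588). For these 3 and Mog, with 5 to 8 libraries at 0, the fitted slope also depends on the small prior count that edgeR adds. Mbp, detected in every library, rose by 0.23 log2 units per day (SE 0.021, adjusted p = 2.62e-07). Mog rose by 0.24 (SE 0.072, adjusted p = 0.0183), a call that was lost without the first P21 replicate (adjusted p = 0.0529). Cnp rose by 0.18 (SE 0.045, adjusted p = 0.00495), and its slope was 0.099 without the P0 libraries (adjusted p = 0.0426).

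Pdgfra, Olig1 and Sox10 did not pass the test. Their slopes were -0.11 for Pdgfra (SE 0.086, adjusted p = 0.368), -0.040 for Sox10 (SE 0.057, adjusted p = 0.662) and -0.013 for Olig1 (SE 0.040, adjusted p = 0.856). Their means peaked at P4 or P8, a shape that a straight line does not describe.

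**Figure D4:**
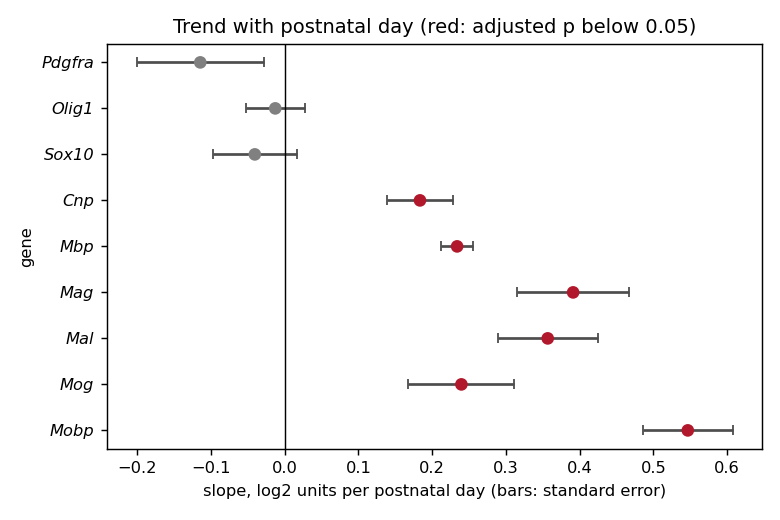
Slope of each gene on postnatal day (horizontal axis, log2 units per day) from the edgeR fit over 15 libraries. Bars are standard errors, calculated as the absolute slope divided by the square root of its F. The 6 genes from Cnp to Mobp lie to the right of 0 with an adjusted p below 0.05, and Pdgfra, Olig1 and Sox10 lie at or just left of 0.

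With the time point as a factor, so that any pattern counts, the same 6 genes passed (19.3% of all genes tested did). Since Mag, Mal, Mog and Mobp passed the filter through their late libraries, this count cannot be set against that share as a test. The adjusted p was 5.60e-06 for Mbp, 0.000113 for Cnp and 0.000128 for Mobp, and 0.0180 for Mal, 0.0199 for Mag and 0.0323 for Mog. The calls for Mag, Mal and Mog were lost without the third P21 replicate, which left 3 of the 6. Mag and Mog were also lost without the second P21 replicate. Mog was further lost on leaving out the first P21 replicate, the first or the third P14 replicate, or any 1 of the 3 P8 replicates.

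Between neighbouring time points, which share libraries, few steps were large beside the spread. From P0 to P4, Cnp was the only 1 of the 9 to rise, by 2.18 log2 units (SE 0.52, adjusted p = 0.0423), where 1.74% of all genes tested rose and 0.231% fell. This call stayed in 2 of the 15 fits that leave out 1 library, those without the third P0 or the third P4 replicate, with an adjusted p up to 0.142 in the others. From P4 to P8 none passed with edgeR (0.882% of genes tested rose and 0.252% fell), and DESeq2 called 2, Cnp and Mbp. At an unadjusted edgeR p below 0.05, 3 were higher at P8 (Cnp, Mbp and Mag) and 1 was lower (Mog). At that p, 951 of the 14293 genes tested were higher and 737 lower. Mag rose from a P4 group at 0 and Mog fell to a P8 group at 0, so their fitted values depend on the prior count. The edgeR differences over this step were 1.84 log2 units for Mbp (SE 0.46, adjusted p = 0.0700) and 1.83 for Cnp (SE 0.50, adjusted p = 0.102).

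From P8 to P14, Mobp rose by a fitted 5.57 log2 units (SE 1.29, adjusted p = 0.0338), where 1.29% of genes tested rose and 1.38% fell. With 2 of the 3 P8 libraries at 0, that value depends on the prior count, and the call stayed in 7 of 15 fits with 1 library left out (adjusted p up to 0.124 in the rest, namely those without any P14 or P21 replicate or without the second or the third P8 replicate). The other 3 genes with an unadjusted p below 0.05 over this step were Mog, Mbp and Sox10. Over all genes tested, 892 were higher and 1018 lower at that p. Mog differed by a fitted 7.63 log2 units (SE 2.27, unadjusted p of 0.00473, adjusted p = 0.104) from a P8 group at 0, a value that depends on the prior count, and was called by DESeq2. Mbp differed by 0.99 (SE 0.44, unadjusted p of 0.0395, adjusted p = 0.339). Sox10 differed by -2.48 log2 units (SE 0.94), with an unadjusted p of 0.0181 and an adjusted p of 0.222. From P14 to P21 none of the 9 passed with edgeR or DESeq2, where 0.063% of genes tested rose and 0.266% fell. In that step 1 gene, Mbp, had an unadjusted edgeR p below 0.05, with a difference of 1.33 log2 units (SE 0.44, adjusted p = 0.432). Among all genes tested, 354 were higher and 649 lower at that p.

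To compare levels between genes, counts were also divided by exon length (RPKM, counts per kilobase of exon scaled to the library total). On this scale Cnp had the highest mean of the 9 at all 5 time points, in order 4.20 ± 4.06, 17.5 ± 6.38, 62.5 ± 20.9, 80.7 ± 9.31 and 61.9 ± 15.7 RPKM (SD, n = 3). Its replicates overlapped those of Olig1, the next gene, at P0 and P4 and were clear of the next gene from P8 on. Its share of the summed RPKM of the 9 genes was 36.0% at P0, 75.4% at P8, 78.3% at P14 and 53.6% at P21. Over the same time points the share of Mbp was 9.12%, 6.80%, 9.79% and 20.5%.

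At P21 Mbp was second, at 23.7 ± 16.1 RPKM, and its replicates overlapped neither those of Cnp nor those of Mog. Mog, Mobp and Mal had 7.61 ± 2.98, 7.23 ± 3.40 and 6.81 ± 2.29 RPKM and overlapped each other, as did Mal with Olig1 (3.98 ± 1.11) and Olig1 with Mag (2.65 ± 1.10). Sox10 (1.34 ± 1.15) and Pdgfra (0.214 ± 0.257) were lowest. At P8 the order below Cnp was a different one, with Sox10 (7.10 ± 0.348 RPKM), Olig1 (6.30 ± 1.44) and Mbp (5.64 ± 0.805) next and the mean of every other gene under 1 RPKM. Olig1 overlapped both Sox10 and Mbp there, while each Sox10 value was above each Mbp value.

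**Figure D5:**
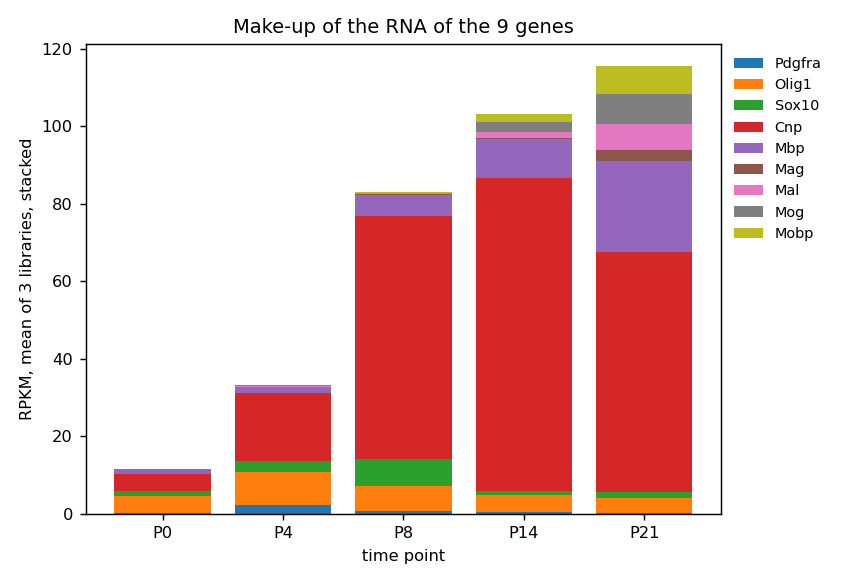
Mean RPKM of 3 libraries, stacked by gene, against time point, with no error shown. Cnp takes the largest part of each bar, 75.4% at P8 and 53.6% at P21, and Mag, Mal, Mog and Mobp become visible at P14 and P21.

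The third P21 replicate stood apart for these genes. It was the highest P21 library for 7 of the 9, all but Mog and Olig1, where 36.8% of the genes with counts at P21 were highest there. The sum of the 9 genes was 897 CPM in it and 423 and 504 CPM in the first and second, and the sum of Mag, Mal, Mog and Mobp was 149 CPM against 88.8 and 77.1 CPM. Of the 10 astrocyte and Bergmann glia markers 8 were highest there, with sums of 5044 CPM against 4027 and 3473, while the PC markers summed to 36886 CPM against 45298 and 46640. The part of this in the P21 levels was not tested. The slopes of Cnp, Mbp, Mag, Mal, Mog and Mobp stayed past the threshold without this library.

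Other genes of the lineage were read from 3 lists. Of 13 progenitor genes, 12 matched, 11 were tested and 2 fell with day in edgeR, where 14.1% of all genes tested fell. At an unadjusted edgeR p below 0.05, 5 of the 11 were lower with day, beside 2879 of the 14293 genes tested. DESeq2 also had 5 lower at that p and limma-voom 4, and each called 3. None of the 11 rose with edgeR, DESeq2 or limma-voom (0 at an unadjusted p below 0.05). The median slope of the 11 was -0.075 (log2 per day). The 2 that fell were Cacng4, an AMPA receptor auxiliary subunit, with a slope of -0.20 log2 units per day (SE 0.020, adjusted p = 7.17e-07), and Vcan, which encodes the matrix proteoglycan versican, with -0.14 (SE 0.025, adjusted p = 0.000464). Cacng4 went from 226, 320 and 193 CPM at P0 to 8.35, 19.3 and 29.3 CPM at P21. Ptprz1, a receptor phosphatase, had the highest mean of the list with a slope of 0.0079 (SE 0.018, adjusted p = 0.796), and Sox8, a relative of Sox10, had -0.075 (SE 0.039, adjusted p = 0.173). Cacng4, Vcan and Ptprz1 are also made by neurons or other glia. Cspg4, which encodes the NG2 proteoglycan of progenitors, averaged 6.42 ± 5.67, 26.1 ± 14.6, 9.97 ± 5.53, 1.58 ± 1.87 and 1.44 ± 2.50 CPM from P0 to P21 (adjusted p = 0.0995 for its slope of -0.19), and was chosen for mention after its values were seen.

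Of 11 genes of the committed, premyelinating stage, 9 were tested, 0 rose with edgeR, DESeq2 or limma-voom (0 at an unadjusted p below 0.05) and 2 fell with edgeR, where 12.1% of all genes tested rose and 14.1% fell, and their median slope was -0.0073. Zfp536, a zinc finger factor, changed by -0.068 log2 units per day (SE 0.023, adjusted p = 0.0347) and Itpr2, an inositol trisphosphate receptor, -0.079 (SE 0.028, adjusted p = 0.0458). Both calls were lost with limma-voom. Fyn, a kinase that acts early in myelination, and Tcf7l2, a Wnt pathway factor, did not pass (adjusted p = 0.707 and 0.780). Fyn averaged 153 ± 14.6 CPM at P0 and 143 ± 27.3 at P21. The cells of origin of the RNA of this list were not tested. Gpr17, a receptor that marks the premyelinating cell, passed the test of any pattern (adjusted p = 0.00905), with means of 0.132 and 3.25 CPM at the first pair of time points, 39.9 ± 15.3 at P8, 24.6 ± 15.9 at P14 and 4.59 ± 4.13 at P21. Myrf had 11.5 ± 5.03 CPM at P8 and 11.6 ± 2.54 at P14 against 1.88 ± 2.69 at P21 (adjusted p = 0.186). Gpr17 and Myrf were also chosen after their values were seen.

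Of 28 further myelin genes, 18 were tested, 6 rose with day and 1 fell, against 12.1% and 14.1% of all genes tested, and their median slope was 0.12. Car2, which encodes a carbonic anhydrase, rose by 0.23 log2 units per day (SE 0.040, adjusted p = 0.000291), with 45.0, 10.5 and 93.4 CPM at P0 and 537, 540 and 581 CPM at P21. Trf, which encodes transferrin, rose by 0.21 (SE 0.033, adjusted p = 9.94e-05), Tspan2, a tetraspanin, by 0.17 (SE 0.023, adjusted p = 1.90e-05) and Adamts4, a protease that cleaves proteoglycans, by 0.12 (SE 0.012, adjusted p = 1.15e-06). The other 2 that rose were Tmem88b at 0.30 and Gjc3, a connexin of myelinating glia, at 0.19. At P0, where Mag, Mal and Mobp had no count, Tspan2 already averaged 31.4 ± 19.8 CPM and Adamts4 47.0 ± 15.7. Which cells made the RNA of the genes on this list was not tested. Apod, which encodes the lipid carrier apolipoprotein D, fell by 0.12 on the log2 scale per day (SE 0.030, adjusted p = 0.00588). Several genes of mature oligodendrocytes had few reads, with Opalin at 2.52 ± 2.41 CPM and Hapln2 at 0.480 ± 0.832 CPM at P21, and Nkx6-2 of the committed list and Klk6 of the myelin list were at 0 in all libraries.

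The genes whose levels followed each lineage gene most closely were taken from 11334 genes by Pearson's r of log2(CPM + 1) over the 15 libraries, as a description, since these share age and depth. For Cnp they were Tuba8 (r = 0.988), Ckmt1 (0.971) and Gm7180 (0.970). Mobp was closest to Mt1 (0.982), Gabarapl1 (0.981) and Dao (0.969), and Mbp to Gm38393 (0.953), Spock2 (0.949) and Sorl1 (0.945). For Mag they were Prl2c3 (0.945), of a family of near-identical genes and so uncertain, Sv2c (0.922) and Adamts4 (0.903), and for Mal they included Sv2c (0.929) and Mapk8ip2 (0.908). Mog was followed by Cds2 (0.903), Mt2 (0.901) and Hspa12a (0.897). Pdgfra, Olig1 and Sox10 had looser neighbours. These were Klk1 (0.872), Xkr6 (0.857) and Scd2 (0.832) for Sox10, Rhbdd3 (0.873), Vps13d (0.868) and Polr3gl (0.865) for Olig1, and Selenoi (0.823), Eif1ad (0.808) and H1f0 (0.805) for Pdgfra. The lineage genes themselves were left out of the candidates, so none of them could be named as a neighbour. Between lineage genes, r ran from -0.518 (Pdgfra and Mog) to 0.888 (Mal and Mobp). Among Mag, Mal, Mog and Mobp it was 0.817 to 0.888. Adamts4 was the only 1 of the neighbours named here on the wider oligodendrocyte lists.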

How the data were processed

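Messenger RNA of captured PCs was amplified and sequenced in paired ends. Per the methods, the authors trimmed reads, mapped them to GRCm38 (GSNAP), kept unique alignments and made gene counts with HTSeq (intersection-strict). The submitters' processing notes list cutadapt 1.2.1, GSNAP and HTSeq 0.5.3p9. The deposited values are these raw counts, 1 library per sample and not normalized; the annotation release is not given in the sources used here. Reads outside genes (18.2% to 31.0% of a library) were left out.

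Symbols, positions and exon lengths came from GENCODE M21, which named 36639 of 38561 identifiers, and 102 of 103 list symbols matched. Genes were tested with edgeR 4.0.16 (R 4.3.3) by its quasi-likelihood F test (TMM normalization, filterByExpr by time point, Benjamini-Hochberg threshold 0.05), on postnatal day as a number, on the time point as a factor and between neighbouring time points. The trend test and the P14 against P8 test were also run on simulated counts. Genes of low mean CPM were not among those changed there, and no group was set to 0. Those runs therefore do not bear on the calls for genes with a group at 0. Each SE of a slope or step was calculated as the absolute effect divided by the square root of its F, and is not an output of edgeR. Where a group was at 0, the SE depends on the prior count as the effect does. The common biological coefficient of variation was 0.757. CPM used TMM library sizes and RPKM plain totals. DESeq2 1.42.0, limma 3.58.1 and other settings were alternatives. Groups came from the labels. The methods call the 3 replicates of a time point biological. Replicates differed by far more than counting noise (chi-square per gene 18.4 to 56.5, where counting noise alone gives about 1). The limit of 3 counts covers counting error only.

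The named genes are the 9 lineage genes, the 4 genes of highest mean CPM in each wider list and, for each lineage gene, the 3 most similar genes of at least 5 CPM on average; those that passed a test or were chosen after their values were seen are named as such. A few genes that these rules or lists select are not reported here. The genes and lists were chosen with earlier results of these data known.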

Additional observations from a re-analysis of the deposited data

How the results depend on the processing

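Of the 9 lineage genes, 6 rose with day under DESeq2 size factors, no filter on low counts, the replicate block, DESeq2, limma-voom and without P0, and 5 on the log2(day + 1) scale, where Mog had an adjusted p of 0.0889. Leaving out 1 library gave 5 to 6. With time as a factor leaving out 1 library gave 3 to 6, and the replicate block 5 (Mog lost, adjusted p = 0.0603). The changed lineage genes ranged over these fits from 0 to 1 for P4 against P0, 0 to 1 for P8 against P4 and 0 to 1 for P14 against P8. For P8 against P4, 2 passed with DESeq2 and 2 without the filter (Cnp and Mbp), and for P14 against P8, 2 with DESeq2 (Mobp and Mog) and 0 with the block. The cause of these differences was not tested.

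Slopes changed sign for Olig1 (0.027 with limma-voom, 0.048 on log2(day + 1), -0.033 to 0.0014 leaving out 1 library), Sox10 (0.13 on log2(day + 1)), Ptprz1 (-0.0079 without P0, -0.0044 to 0.023) and Tcf7l2 (-0.0064 to 0.032). Of the progenitor list 4 fell with the block, and 2 to 4 leaving out 1 library (4 without the third P21 replicate). Of the committed list 0 fell with limma-voom, 0 on log2(day + 1), 0 with the block, 1 without the filter and 1 without P0, and 0 to 2 leaving out 1 library, while 1 rose on log2(day + 1). Of the myelin list 10 rose with limma-voom.

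Over all genes, DESeq2 called 773 for P4 against P0 (edgeR 281, or 186 to 302 leaving out 1 library), 496 for P8 against P4 (162, 74 to 201), 844 for P14 against P8 (382, 163 to 441) and 175 for P21 against P14 (47, 24 to 68). Replicate numbers did not pair the libraries. Deviations from the time point means correlated at -0.00329 on average between libraries of the same number and 0.00165 otherwise, and with the replicate block 1723 genes rose and 1911 fell with day (1729 and 2021 without it). In the P0 to P8 libraries, 3 counts stood for 0.384 to 0.788 CPM of plain totals. At 3 libraries a time point, the presence of Mag, Mal, Mog and Mobp RNA below that limit at P0 to P8 was not detectable.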
